A study of Mus musculus with 8 samples.

Results

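Matrix metalloproteinases (MMPs), ADAM and ADAMTS proteases and the tissue inhibitors of metalloproteinases (TIMPs) were followed in colon RNA of adult mice, either wild type or lacking STAT5b, which carries signals from growth hormone, prolactin and cytokine receptors to the genome. Members were taken by gene symbol, as every measured gene whose name begins with Mmp, Timp, Adam or Adamts followed by a number. They numbered 60 genes on 63 probe sets, of 14348 genes in all, with 19 Mmp, 4 Timp, 26 Adam and 11 Adamts genes. RNA was measured on Affymetrix expression arrays from 3 samples titled WT, all from females with the wild type genotype, and 3 samples titled STAT5b-/-, of which replicate 1 was from a male and the other 2 from females. A further sample titled REF, wild type by its genotype label and female, has 2 columns in the table whose values were the same apart from rounding, less than sampling noise, and was counted as 1 sample. No strain, exact age or treatment is given in the labels. They also do not say what REF stands for, what the mutation takes out of the gene, or whether replicates were separate animals. A p-value here therefore reflects the spread of these samples alone, which may be technical.

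MMPs are zinc-dependent enzymes that are made as inactive proenzymes and, once activated, cleave collagens, proteoglycans, growth factors and other proteins outside the cell. TIMPs bind their active site and block it. ADAM proteases sit in the cell membrane and release the outer part of membrane proteins such as epidermal growth factor receptor ligands, tumour necrosis factor and Notch receptors, although several ADAMs lack a working active site and serve in adhesion instead. ADAMTS proteases are secreted and act on the matrix, with proteoglycans and procollagens among their substrates. In the gut these families are known for their part in matrix turnover, wound repair and inflammation, and most matrix-degrading members are made by fibroblasts, macrophages, neutrophils or wounded epithelium.

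Each value in the table is the signal of a probe set divided by its own mean over the 3 WT arrays, so that 1 is the WT mean. The level of one gene against another was lost in that division, and neither the tissue label nor the abundance of any member could be read from the table. The median ratio per array ranged from 0.948 (REF) to 1.04 (WT replicate 2). Differences between groups were tested on log2 ratios with limma over all 14348 genes, and a gene is named as risen, fallen or called where its Benjamini-Hochberg adjusted p was under 0.05. Stat5b itself, on 1 probe set, had ratios of 1.08, 0.930 and 0.993 in WT and 1.16, 1.17 and 1.26 in the arrays labelled STAT5b-/-. It was thus not measured lower there (limma adjusted p = 0.175). All its STAT5b-/- values lay above all WT values, as in 25% of all genes, and REF was at 1.18. Whether the probe set lies in the removed part is not known, so the labels could not be checked with it. Every direction given here therefore rests on the labels.

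WT replicate 2 stood apart in these families. It was the highest of all 7 samples in 39 of the 60 members (65.0%), against 33.3% of all genes. The ADAMs of testis and sperm showed the gap most clearly, with a median log2 ratio of 0.58 in WT replicate 2 and of -0.43 and -0.40 in the other 2 WT arrays. Without it, 12 of the 60 members had a log2 difference between STAT5b-/- and WT of the opposite sign, none of them called in the reported fit. Values without it are given beside many of the members described.

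Of the 60 members, 1 rose and 8 fell in STAT5b-/- against WT. Among all genes 21.7% were called, 13.3% higher and 8.43% lower, so the share of members called was below the background and the share that fell above it. The fallen genes were the stromelysin Mmp10, the membrane-anchored Mmp23, the inhibitor Timp3, the membrane proteases and adhesion molecules Adam8, Adam19 and Adam23, the procollagen peptidase Adamts2 and the aggrecanase Adamts4. The collagenase Mmp13 was the member that rose. The median log2 fold change (log2FC, STAT5b-/- over WT) of the 60 members was -0.36, against 0.01 over all genes, and 45 of 60 lay below 0, against 49.4% of all genes. Without WT replicate 2 the median was -0.11 against 0.09 over all genes, with 37 of 60 members below 0. That fit called 12 members, against 24.7% of all genes, and 8 of these were among the 9. Leaving out STAT5b-/- replicate 1, the male, gave a fit of females only. It called 7 members, all among the 9, against 13.3% of all genes, and lost Mmp13 and Adam23. The same calls were lost without STAT5b-/- replicate 2, a female. Sex and the smaller number of arrays cannot be told apart here.

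**Figure D1:**
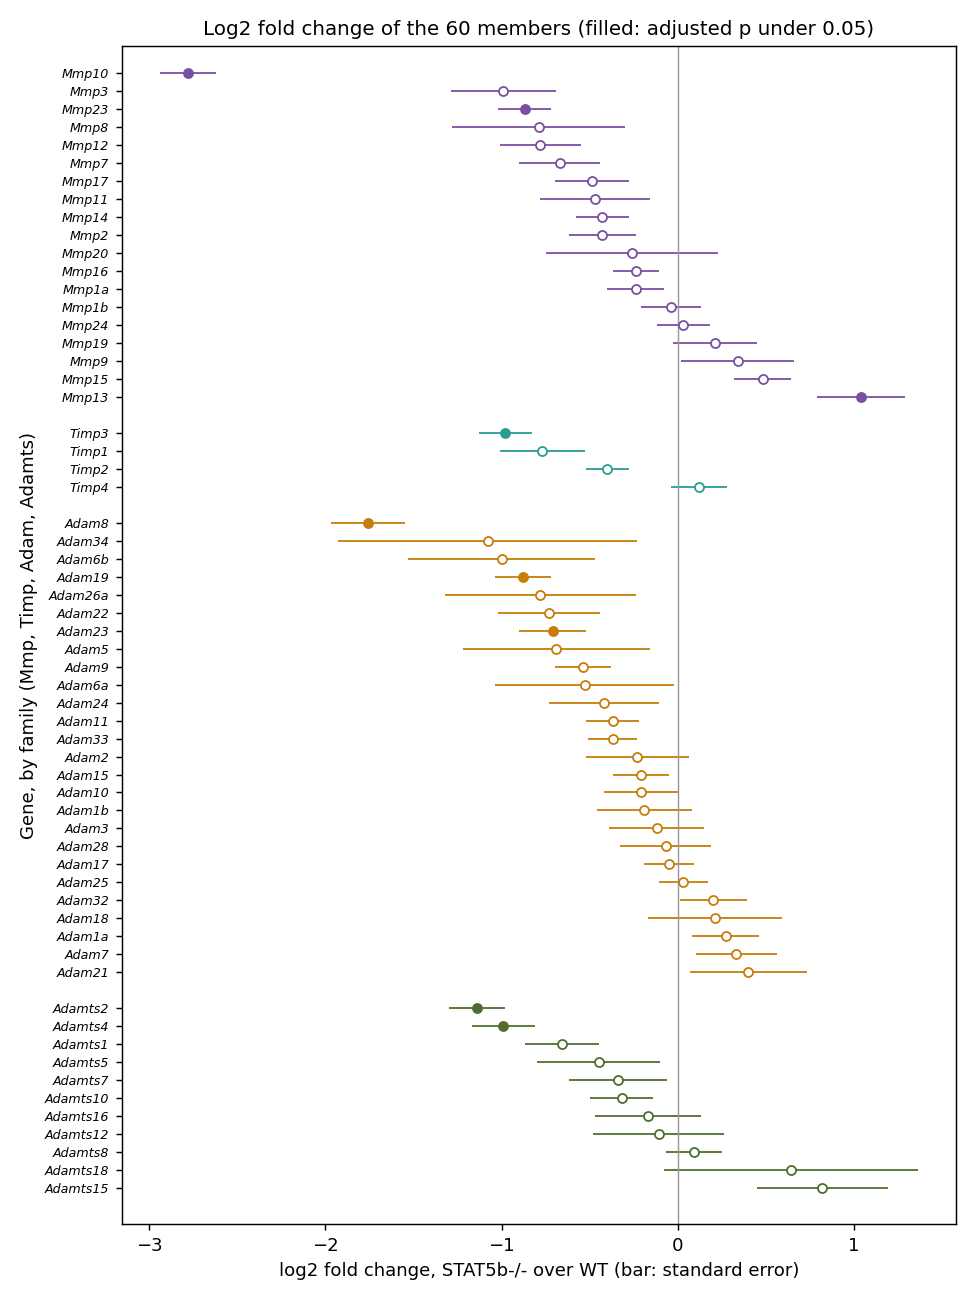
Log2 fold change of each of the 60 members in STAT5b-/- over WT (x axis, log2 scale), grouped by family and sorted within it. Bars are standard errors of the limma fit over 3 arrays a group, and filled points passed an adjusted p under 0.05; Mmp10 at -2.78 and Adam8 at -1.76 lie farthest to the left, and Mmp13 at 1.04 farthest to the right.

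Many secreted MMP genes share AP-1 sites in their promoters. Of the 60 members, 36 have an entry in RefSeq's promoter table (build GRCm38.p6), from which the 250 bases before each start site were searched. The AP-1 heptamer TGANTCA, searched on both strands, was found in 10 of these 36 genes and in 7.82% of the 27025 genes of the table. The search found it in Mmp1a, Mmp1b, Mmp3, Mmp7, Mmp10, Mmp12, Mmp13 and Mmp20, all of the Mmp cluster on chromosome 9, and in Adam19 and Adam25. Mmp8, which lies in the same cluster, had no match in its window. The interferon-gamma activated site letters TTCNNNGAA, the general form bound by STAT factors, searched on both strands, were found in Adam21 and Mmp23, 2 of the 36, and in 8.13% of all genes. Shown here are the last 110 bases before a listed start site of 4 genes of the cluster. Mmp10 and Mmp13 were chosen as the members that changed most in opposite directions there, and Mmp3 and Mmp7 as neighbours that share their layout. Capitals mark the AP-1 heptamer and the TATAAA box, which was searched on the strand of the gene only and was found in 8.94% of all genes. All are on the plus strand and are written 5′ to 3′.
Mmp10, chr9:7502232-7502341: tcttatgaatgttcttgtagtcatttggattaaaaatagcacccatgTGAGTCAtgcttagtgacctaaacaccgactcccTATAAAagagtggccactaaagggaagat
Mmp13, chr9:7272404-7272513: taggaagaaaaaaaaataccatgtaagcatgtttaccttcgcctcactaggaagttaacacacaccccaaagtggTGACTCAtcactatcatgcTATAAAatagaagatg
Mmp3, chr9:7445712-7445821: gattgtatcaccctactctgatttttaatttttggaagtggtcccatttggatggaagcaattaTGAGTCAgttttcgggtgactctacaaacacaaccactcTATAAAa
Mmp7, chr9:7691980-7692089: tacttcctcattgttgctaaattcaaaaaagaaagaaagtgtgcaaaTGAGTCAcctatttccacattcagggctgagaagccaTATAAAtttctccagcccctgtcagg

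All 4 windows hold 1 heptamer and 1 TATAAA box downstream of it. Mmp3 and Mmp7 were chosen for this layout, so its presence in them is not a finding. Mmp7 has a further listed start site, not shown, whose searched window held 0 heptamers and 0 TATAAA boxes. In the windows shown the heptamer begins 63 bases before the start in Mmp10 and Mmp7, 46 in Mmp3 and 35 in Mmp13. The TATAAA box begins 29 bases before it in Mmp10, 26 in Mmp7, 7 in Mmp3 and 16 in Mmp13. These distances depend on the listed start and are not compared between genes. Mmp13 carries the letters TGACTCA, which are those of TGAGTCA read on the opposite strand. Listed start sites can differ from those used in the colon, and a match is a description of letters, not evidence of binding.

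Mmp10 (stromelysin-2), a broad matrix protease known from wound edge epithelium and macrophages, had the largest fold change of the 60 members. Its ratios were 0.858, 0.975 and 1.17 in WT, 0.156, 0.15 and 0.129 in STAT5b-/- and 0.699 in REF. The 3 STAT5b-/- arrays were close together and far below every wild type sample. Mmp10 fell by 2.78 ± 0.16 (SE) on the log2 scale, which is 6.86-fold (limma adjusted p = 0.000181). The call held under each of the 17 alternative analyses, of which some leave its log2FC as it is by design.

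Mmp3 (stromelysin-1), a stromal activator of other MMP proenzymes, had ratios of 0.789, 1.51 and 0.704 in WT, 0.412, 0.580 and 0.447 in STAT5b-/- and 0.681 in REF. The groups did not overlap, but WT replicate 2 lay well above the other WT arrays. The value, -0.99 ± 0.30 in log2, did not pass (limma adjusted p = 0.0610). Without WT replicate 2 it was -0.65 and passed (adjusted p = 0.0389). Mmp11 (stromelysin-3), a stromal MMP that is activated inside the cell by furin, had a log2FC of -0.47 ± 0.31 (adjusted p = 0.336), and of -0.31 without WT replicate 2, with ratios of 0.453, 0.988 and 0.810 in STAT5b-/-.

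Mmp13 (collagenase-3), which cleaves fibrillar collagen, was the member that rose. Its ratios were 0.786, 0.787 and 1.43 in WT, 1.80, 2.21 and 1.95 in STAT5b-/- and 0.890 in REF. Every STAT5b-/- array lay above every wild type sample, with WT replicate 3 the nearest. Mmp13 rose 2.06-fold, by 1.04 ± 0.25 on the log2 scale (limma adjusted p = 0.0278). The call was lost when WT replicate 1 was left out (adjusted p = 0.0748), and without STAT5b-/- replicate 1 (0.0733), replicate 2 (0.102) or replicate 3 (0.0849). The log2FC stayed between 0.90 and 1.11 in these fits. Quantile normalization also removed the call (adjusted p = 0.632). Over the 17 alternatives the log2FC ranged from 0.61 to 1.33.

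The other collagenases were not called. Mmp8, the collagenase of neutrophils, had ratios of 0.531, 1.90 and 0.566 in WT, 0.452, 0.397 and 0.615 in STAT5b-/- and 0.416 in REF. WT replicate 2 alone was high, and the log2FC of -0.79 ± 0.49 (limma adjusted p = 0.314) was -0.19 without it. Neutrophil markers, 9 of 10 measured, showed the same array out of line. Their mean ratio was 1.57 in WT replicate 2, 0.690 to 0.736 in the other WT arrays, 0.683 to 0.718 in STAT5b-/- and 0.581 in REF, and their part in the value of Mmp8 was not tested. Mmp1a and Mmp1b, the near-identical mouse counterparts of interstitial collagenase, whose probes could share signal, had log2FC values of -0.24 ± 0.16 and -0.04 ± 0.17. Without WT replicate 2 these were -0.15 for Mmp1a and 0.12 for Mmp1b.

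**Figure D2:**
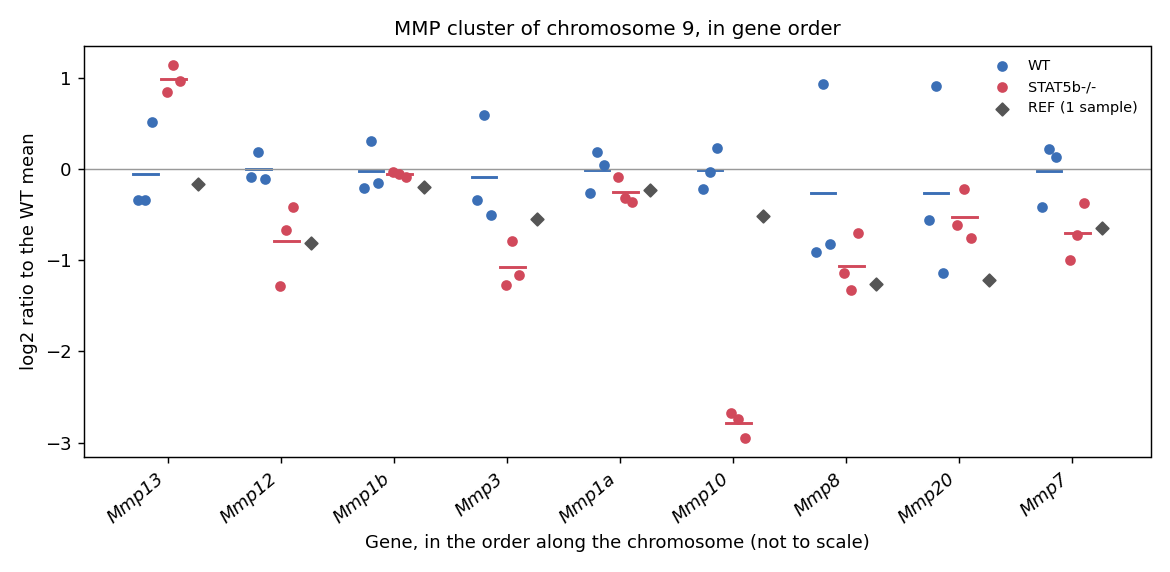
Log2 ratio to the WT mean (y axis) in each array for the 9 measured MMP genes of the chromosome 9 cluster, in gene order and not to scale along the chromosome. Points are single arrays, short bars the mean of 3 arrays, and diamonds REF; Mmp13 at one end lies above WT in all 3 STAT5b-/- arrays, Mmp10 far below, and WT replicate 2 is the high blue point of Mmp3, Mmp8 and Mmp20.

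The cluster on chromosome 9 holds 10 Mmp genes in the RefSeq gene table, with no other protein-coding gene between the first and the last. In gene order the log2FC values were 1.04 for Mmp13, -0.78 for Mmp12, -0.04 for Mmp1b, -0.99 for Mmp3, -0.24 for Mmp1a, -2.78 for Mmp10, -0.79 for Mmp8, -0.26 for Mmp20 and -0.67 for Mmp7. Of these, Mmp1b and Mmp20 changed sign without WT replicate 2, to 0.12 and 0.32. Mmp27, between Mmp8 and Mmp20, was not analysed here. Mmp13 and Mmp10 were thus called in opposite directions, and both carry the heptamer, while the 4 genes between them were not called. The values of these neighbours were set side by side after they had been seen.

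Mmp12 (macrophage elastase) had ratios of 0.940, 1.14 and 0.922 in WT, 0.412, 0.628 and 0.747 in STAT5b-/- and 0.569 in REF. REF thus lay inside the range of the STAT5b-/- arrays. Its log2FC of -0.78 ± 0.23 did not pass (limma adjusted p = 0.0559), and passed without STAT5b-/- replicate 3 (adjusted p = 0.0497). For Mmp7 (matrilysin), an epithelial MMP that activates defensins in the mouse small intestine, the ratios were 0.746, 1.16 and 1.09 in WT, 0.50, 0.605 and 0.770 in STAT5b-/- and 0.638 in REF. The groups overlapped, and the log2FC was -0.67 ± 0.23 (adjusted p = 0.0850). It passed without WT replicate 1, at -0.87 (adjusted p = 0.0414).

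Mmp23, a short MMP anchored by its amino end and lacking the usual haemopexin domain, had ratios of 0.996, 1.01 and 0.995 in WT, 0.460, 0.643 and 0.552 in STAT5b-/- and 0.981 in REF. All 4 wild type samples were close to 1 and all STAT5b-/- arrays well below. It fell by 0.87 ± 0.15 on the log2 scale, or 1.83-fold (limma adjusted p = 0.00857), and by 0.68 with no call after quantile normalization (adjusted p = 0.0770). Mmp14 (MT1-MMP), the membrane-type MMP that activates the Mmp2 proenzyme, had ratios of 1.08, 1.02 and 0.901 in WT, 0.633, 0.800 and 0.792 in STAT5b-/- and 1.04 in REF. The groups did not overlap, and the log2FC of -0.43 ± 0.15 did not pass (adjusted p = 0.0826). Mmp15 (MT2-MMP), a membrane-type MMP of epithelia, was 1.11, 0.812 and 1.08 in WT, 1.37, 1.5 and 1.27 in STAT5b-/- and 1.15 in REF, with a log2FC of 0.48 ± 0.16 (adjusted p = 0.0826). These 2 of the 5 measured membrane-type MMPs thus lay on opposite sides of WT without passing. The others, Mmp17, Mmp16 and Mmp24, were not called, with log2FC values of -0.49 ± 0.21, -0.24 ± 0.13 and 0.03 ± 0.15.

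The gelatinases Mmp2 and Mmp9, which cleave denatured and basement membrane collagen, were not called. Mmp2, a product of fibroblasts, had ratios of 0.834, 0.618 and 0.760 in STAT5b-/- and a log2FC of -0.43 ± 0.19 (limma adjusted p = 0.164). It passed without WT replicate 2, with a value of -0.60 (adjusted p = 0.0358). Mmp9, a product of leukocytes, spread from 0.820 to 1.88 over the STAT5b-/- arrays and had a log2FC of 0.34 ± 0.32 (adjusted p = 0.514). Of the 19 Mmp genes, 14 had a log2FC below 0. Their median was -0.43, and -0.19 without WT replicate 2.

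The 4 TIMPs were measured, and 3 of them lay lower in STAT5b-/- with no overlap between the groups, as did 16.5% of all genes. Timp3, which binds to the matrix and also inhibits ADAM17 and aggrecanases, had ratios of 1.02, 1.13 and 0.854 in WT, 0.472, 0.558 and 0.487 in STAT5b-/- and 0.673 in REF. It fell by 0.98 ± 0.15 on the log2 scale, which is 1.97-fold (limma adjusted p = 0.00560). REF lay between the groups, with a log2 difference from WT of -0.56 ± 0.25 that did not pass (adjusted p = 0.998).

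Timp1, the inducible inhibitor of most secreted MMPs, had ratios of 0.863, 1.26 and 0.878 in WT, 0.438, 0.727 and 0.602 in STAT5b-/- and 1.04 in REF. Timp2, a constitutive inhibitor that also takes part in Mmp2 activation, was 0.954, 0.961 and 1.08 in WT, 0.768, 0.712 and 0.798 in STAT5b-/- and 1.09 in REF. For both genes every STAT5b-/- array was below every wild type sample. Their log2FC values of -0.77 ± 0.24 and -0.40 ± 0.12 missed the threshold (limma adjusted p = 0.0611 and 0.0613), and both passed with WT and REF together as the control (0.0281 and 0.0253). Timp4, an inhibitor best known from heart, had a log2FC of 0.12 ± 0.16 with overlapping groups, and of 0.20 without WT replicate 2. The TIMP median of -0.58 was the lowest of the 4 families, and was -0.51 without WT replicate 2.

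**Figure D3:**
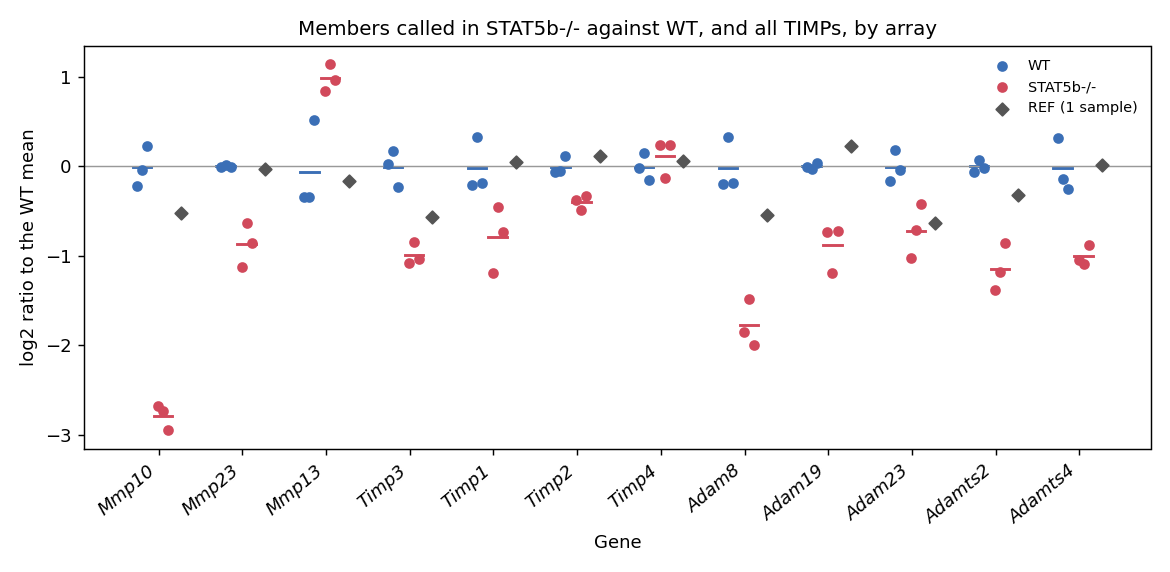
Log2 ratio to the WT mean (y axis) in each array for the 9 called members and the 4 TIMPs, one of which is both. Points are single arrays, short bars the mean of 3 arrays, and diamonds REF; the STAT5b-/- points of Timp1, Timp2 and Timp3 lie below all WT points, and REF lies near the STAT5b-/- points in Adam23.

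Among the 8 measured ADAMs that have a zinc-binding active site and are expressed outside the testis, 2 fell, and all 8 had a log2FC below 0. Of all genes 8.43% fell and 49.4% lay below 0. Without WT replicate 2, 6 of the 8 ADAMs lay below 0, with Adam17 at 0.04 and Adam28 at 0.20. Adam8, a sheddase and adhesion molecule of leukocytes and activated macrophages, was 0.871, 1.25 and 0.876 in WT, 0.277, 0.356 and 0.251 in STAT5b-/- and 0.687 in REF. The groups were far apart. Adam8 fell by 1.76 ± 0.21 on the log2 scale, which is 3.38-fold (limma adjusted p = 0.00205), and was called under each of the 17 alternatives. Macrophage and dendritic cell markers, 11 of 12 measured, fell in 8 and rose in 0, against 8.43% and 13.3% of all genes. Their mean ratio was 0.889 to 1.16 in WT, 0.506 to 0.664 in STAT5b-/- and 1.07 in REF, with no value of the table at 0. In whole tissue, fewer cells of a type and less RNA per cell cannot be told apart, and the part of these markers in the Adam8 value was not tested.

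Adam19 (meltrin beta), which sheds neuregulins, was 0.993, 0.978 and 1.03 in WT, 0.601, 0.439 and 0.604 in STAT5b-/- and 1.17 in REF. It fell by 0.88 ± 0.16 on the log2 scale (limma adjusted p = 0.00979). Adam9 (meltrin gamma), a widely expressed sheddase, had ratios of 0.707, 0.590 and 0.770 in STAT5b-/-, below all wild type samples, and a log2FC of -0.54 ± 0.16 that did not pass (adjusted p = 0.0519). Adam33, a protease of smooth muscle and fibroblasts, likewise did not overlap between groups and had a log2FC of -0.37 ± 0.14 (adjusted p = 0.121).

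The principal sheddases Adam10, which cleaves Notch receptors and cadherins, and Adam17, which releases tumour necrosis factor and amphiregulin, were not called. Adam10 was 0.774, 1.26 and 0.964 in WT and 0.982, 0.759 and 0.822 in STAT5b-/-, with a log2FC of -0.21 ± 0.21. Adam17 was 0.930, 1.13 and 0.935 in WT and 0.982, 0.890 and 1.01 in STAT5b-/-, with a log2FC of -0.05 ± 0.14 (limma adjusted p = 0.540 and 0.828). Without WT replicate 2 they were at -0.02 and 0.04. They were singled out after their values had been seen. Adam15 and Adam28, read by 2 probe sets each, were not called by either, with log2FC values of -0.19 and -0.23 for Adam15 and -0.12 and -0.02 for Adam28.

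The 3 ADAMs of nervous tissue that lack a working protease site lay lower in STAT5b-/- with no overlap between the groups, as did 16.5% of all genes. WT replicate 2 was the highest sample in all 3. Adam23 had ratios of 0.893, 1.13 and 0.973 in WT, 0.490, 0.609 and 0.747 in STAT5b-/- and 0.645 in REF. It fell by 0.71 ± 0.19 on the log2 scale (limma adjusted p = 0.0374), which was the largest adjusted p of the 9 calls. The call was lost under 9 of the 17 alternatives, among them without WT replicate 1 (0.0557), WT replicate 2 (0.0593), WT replicate 3 (0.0897), STAT5b-/- replicate 1 (0.103) and STAT5b-/- replicate 2 (0.110). Adam22, a receptor of the secreted synaptic protein LGI1, lay at 0.739, 1.52 and 0.732 in WT and 0.580, 0.542 and 0.571 in STAT5b-/-, with a log2FC of -0.73 ± 0.29 (adjusted p = 0.122), and of -0.38 without WT replicate 2 (adjusted p = 0.0536). REF was at 0.532, below these arrays. Adam11 had a log2FC of -0.37 ± 0.15 (adjusted p = 0.133).

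Of the 15 measured ADAMs of testis and sperm, none was called by limma, against 21.7% of all genes. Against 5030 of all 14348 genes, 0 of these 15 had an unadjusted p under 0.05. Their median log2FC was -0.19 with all WT arrays and 0.12 without WT replicate 2, so its sign turned on that array. The widest gap was in Adam34, with ratios of 0.473, 2.36 and 0.170 in WT, 0.251, 0.275 and 0.289 in STAT5b-/- and 0.134 in REF, which was chosen after its values had been seen. Its log2FC of -1.08 ± 0.85 was -0.06 without WT replicate 2. Adam6b, nearly identical to Adam6a so that probes may share signal, was 0.559, 1.94 and 0.502 in WT and 0.276, 0.496 and 0.491 in STAT5b-/-. Its log2FC was -1.0 ± 0.53 with all WT arrays and -0.38 without WT replicate 2 (adjusted p = 0.240 and 0.357). In 10 of the 15 genes WT replicate 2 was above all other samples. The Adam family median of -0.30 became -0.06 without that array.

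**Figure D4:**
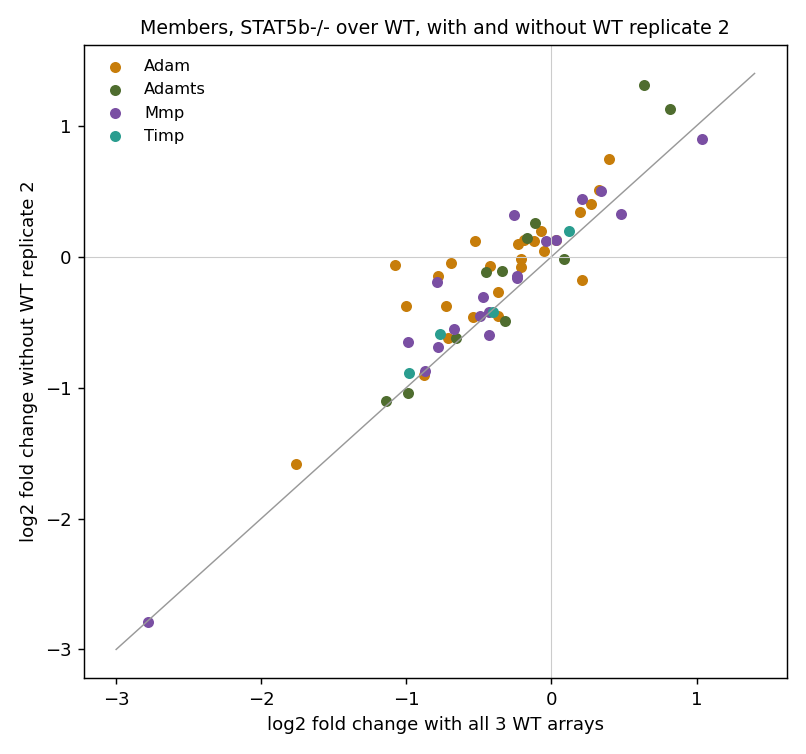
Log2 fold change in STAT5b-/- over WT of the 60 members with all 3 WT arrays (x axis) and without WT replicate 2 (y axis), coloured by family, with the line of equal values. Mmp10 and Adam8 stay near the line, while many Adam genes between -1.08 and 0 lie above it, so the Adam median moves from -0.30 to -0.06.

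Adamts2, which removes the amino-terminal propeptide of fibrillar procollagens, was 0.956, 1.05 and 0.990 in WT, 0.383, 0.440 and 0.550 in STAT5b-/- and 0.804 in REF. WT arrays were close together and every STAT5b-/- array was far below them. Adamts2 fell by 1.14 ± 0.16 on the log2 scale, which is 2.21-fold (limma adjusted p = 0.00403), and was the only member beside Mmp10 and Adam8 called under each of the 17 alternatives. Adamts4 (aggrecanase-1) had ratios of 1.25, 0.909 and 0.841 in WT, 0.483, 0.469 and 0.543 in STAT5b-/- and 1.01 in REF. It fell by 0.99 ± 0.18 on the log2 scale, which is 1.98-fold (adjusted p = 0.00988), and was not called after quantile normalization (adjusted p = 0.266).

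Adamts1, an inducible proteoglycanase, had ratios of 1.04, 1.05 and 0.904 in WT, 0.695, 0.782 and 0.465 in STAT5b-/- and 1.11 in REF. Its groups did not overlap and its log2FC of -0.66 ± 0.21 did not pass (limma adjusted p = 0.0690). Adamts15, also a proteoglycanase, lay on the other side, with ratios of 1.09, 1.4 and 0.513 in WT and 1.95, 1.38 and 1.61 in STAT5b-/-, and a log2FC of 0.82 ± 0.37 (adjusted p = 0.163). It passed without WT replicate 2, at 1.13 (adjusted p = 0.0461). Adamts5 (aggrecanase-2), Adamts7, which cleaves cartilage oligomeric matrix protein, and Adamts10 had log2FC values of -0.45 ± 0.35, -0.34 ± 0.28 and -0.32 ± 0.18 with overlapping groups. Without WT replicate 2 Adamts5 was at -0.12 and Adamts7 at -0.11. Adamts10 passed without WT replicate 2, at -0.49 (adjusted p = 0.0486). The family median was -0.32, and -0.11 without that array.

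By family, 2 of the 19 Mmp genes fell and 1 rose, and 1 of the 4 Timp genes fell. Of the 26 Adam genes 3 fell, and of the 11 Adamts genes 2 fell. Among all genes 8.43% fell and 13.3% rose. In each family the share that fell was above that of all genes, and the share that rose was below it. Each share that fell rests on 1 to 3 genes. Groups did not overlap in 20 members that lay lower and 2 that lay higher, against 16.5% and 25% of all genes, or 41.5% in either direction. Leaving out WT replicate 2 moved the medians of the Mmp, Adam and Adamts families most and that of the Timp family least, from -0.58 to -0.51. Differences between families were not tested, since the members were chosen with results of these data known.

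Transcripts of proteins that these enzymes act on were compared in the same fit, in which 13.3% of all genes rose and 8.43% fell. Matrix substrates, 23 of 26 measured, fell in 11 and rose in 0, with a median log2FC of -0.53. The proteoglycans Dcn and Lum, both substrates of MMPs, fell by 1.11 ± 0.14 and 1.36 ± 0.20, the matricellular protein Tnc by 0.92 ± 0.14 and the fibrillar collagen Col5a2 by 0.93 ± 0.14. Fibroblast markers, of which several are also matrix substrates, fell in 8 of 10, with Fbln1 and Dpt falling by 1.76 ± 0.15 and 1.08 ± 0.15. The markers not called were Pdgfra, at -0.09 ± 0.16, and Thy1, at 0.34 ± 0.15. Every STAT5b-/- array lay above every WT array for Thy1. The mean ratio of the 10 markers was 0.902 to 1.05 in WT, 0.576 to 0.689 in STAT5b-/- and 0.921 in REF. The part of this marker shift in Adamts2, Timp3 or Mmp23 was not tested. Mast cell markers fell in 4 of 10, endothelial markers in 1 of 8 (Tek, by 0.78 ± 0.12) and smooth muscle markers in 0 of 8, with 0 under an unadjusted p of 0.05. The mast cell markers had a mean ratio of 1.55 in WT replicate 2, against 0.709 and 0.740 in the other WT arrays. It was 0.399 to 0.503 in STAT5b-/- and 0.712 in REF. Colon epithelium markers, 10 of 12 measured, rose in 5 and fell in 1, with Car1 rising by 1.62 ± 0.24 and Slc26a3 by 0.86 ± 0.16. Their mean ratio was 0.988 to 1.02 in WT and 1.38 to 1.61 in STAT5b-/-.

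Genes that activate or restrain MMPs, 23 of 25 measured, rose in 3 and fell in 1, with a median of -0.04. Bsg (basigin, or EMMPRIN), a membrane protein known to induce MMPs in stromal cells, had ratios of 1.16, 0.971 and 0.872 in WT, 2.07, 2.17 and 2.02 in STAT5b-/- and 1.27 in REF. It rose by 1.07 ± 0.14 on the log2 scale (limma adjusted p = 0.00330). The Kunitz inhibitors of epithelial serine proteases Spint1 and Spint2 rose by 0.99 ± 0.19 and 0.67 ± 0.13, and kallikrein Klk1 fell by 1.4 ± 0.25. Among related proteases 1 of 12 measured genes was called, the brush border metalloprotease Mep1a (meprin alpha), which rose by 1.78 ± 0.15 (adjusted p = 0.000602). Its relative Mep1b had a log2FC of 0.30 ± 0.17 (adjusted p = 0.270).

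Of 12 partners of ADAM10 and ADAM17, 2 rose, 5 fell and 5 were not called, against 13.3% of all genes that rose and 8.43% that fell. Frmd8, which stabilises the iRhom and ADAM17 complex, rose by 0.92 ± 0.12. Sfrp1, a secreted Wnt antagonist that also inhibits ADAM10, had ratios of 1.08, 1.19 and 0.732 in WT, 0.201, 0.235 and 0.264 in STAT5b-/- and 0.862 in REF, and fell by 2.08 ± 0.21 (limma adjusted p = 0.00125). Tspan33, a tetraspanin that accompanies ADAM10 to the cell surface, fell by 1.19 ± 0.17, and the disulfide isomerase Pdia6 by 1.29 ± 0.13.

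Shed substrates, 25 of 26 measured, rose in 3 and fell in 6, with a median of -0.17 against -0.23 for REF over WT. Both differences share the WT arrays. Egf, a growth factor shed by ADAM10, fell by 1.56 ± 0.20, its relative Btc by 0.54 ± 0.12, and the adhesion molecules Vcam1 and Alcam by 0.84 ± 0.17 and 0.84 ± 0.18 (limma adjusted p = 0.00292, 0.0203, 0.0146 and 0.0196). Growth factor ligands lay on both sides of WT. Areg (amphiregulin), shed by ADAM17, had ratios of 2.17, 0.244 and 0.584 in WT, 3.37, 4.71 and 4.56 in STAT5b-/- and 1.02 in REF. It rose by 2.62 ± 0.72 on the log2 scale (adjusted p = 0.0424), with a wide spread among the WT arrays. Hbegf, a further ligand of this receptor family, rose by 1.30 ± 0.34 (adjusted p = 0.0374). These 2 genes were named after their values had been seen. AP-1 subunits, related transcription factors and inducing cytokines, all 17 measured, rose in 5 and fell in 1, with a median of 0.17. The AP-1 subunits Junb, Jun and Fosl1 rose by 1.48 ± 0.18, 1.02 ± 0.14 and 1.04 ± 0.19, and the NF-kB subunit Nfkb1 by 0.79 ± 0.14 (adjusted p = 0.00251, 0.00328, 0.00982 and 0.00939). A further AP-1 subunit, Fosl2, rose by 0.70 ± 0.14 (adjusted p = 0.0145), whereas Fos, Fosb and Jund were not called. The gene that fell was the cytokine Il1b, by 0.64 ± 0.15 (limma adjusted p = 0.0243). The other listed cytokines Tnf, Il6, Osm, Tgfb1 and Il1a were not called. Their log2FC values were -0.62, -0.57, -0.52, -0.27 and -0.17. These cytokines were named after their values had been seen. Mmp10 was lower, and Mmp13 higher, in arrays where 4 AP-1 subunit genes were higher, and a link between them was not tested. REF had a ratio of 1.57 for Junb, above its WT arrays.

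**Figure D5:**
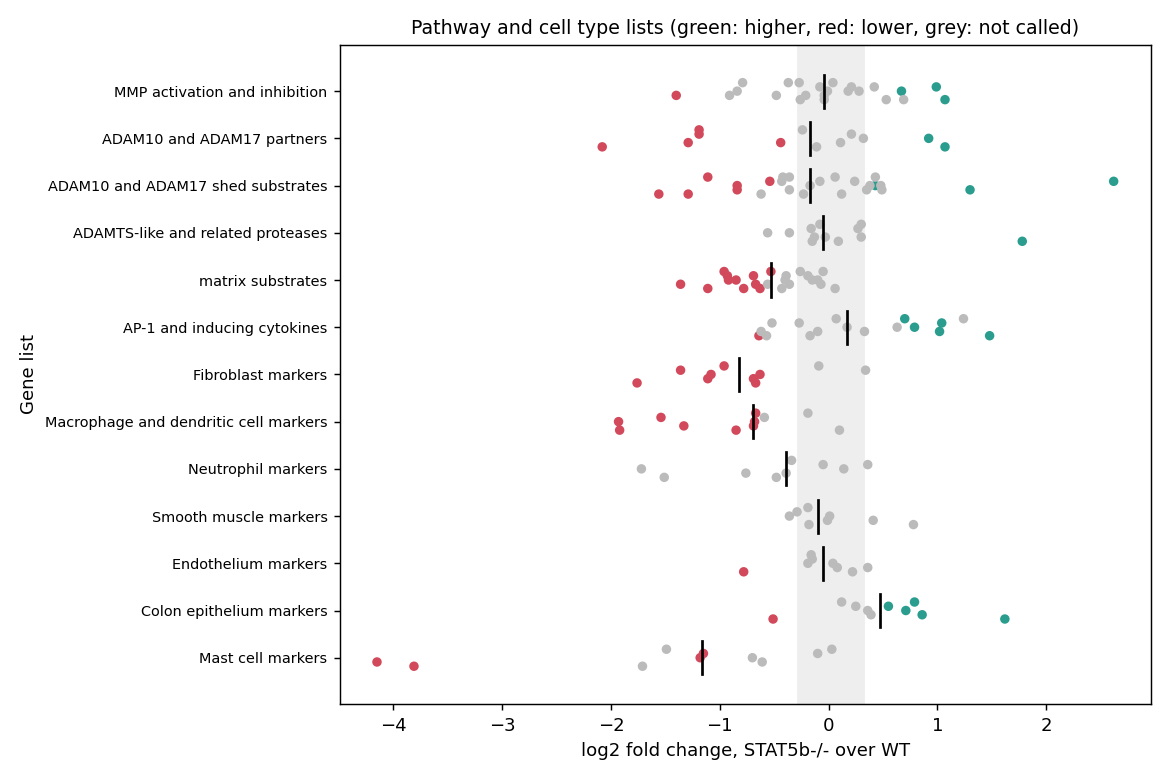
Log2 fold change in STAT5b-/- over WT (x axis) of each measured gene in 6 pathway lists and 7 cell type marker lists (y axis). Points are genes, coloured by call at an adjusted p under 0.05, black bars are list medians and the grey band spans the middle 50% of all genes; matrix substrates and fibroblast, macrophage, neutrophil and mast cell markers have medians to the left of the band, and colon epithelium markers to the right.

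REF was set against the 3 WT arrays as a further wild type sample. Against WT, limma called 0 genes in either direction (0% of all genes), and 208 of 14348 genes had an unadjusted p under 0.05, which is 1.45%. Of the 60 members, REF lay below all WT arrays in 26 and above them in 4, against 28.2% and 20.1% of all genes. The member median for REF over WT was -0.26, against -0.05 over all genes. The 3 members with the smallest p were Mmp12, Adam23 and Mmp16, a membrane-type MMP of brain, with log2 differences of -0.81, -0.62 and -0.56 (unadjusted p = 0.0228, 0.0527 and 0.0664; limma adjusted p = 0.998 for each). For Mmp12 and Adam23 these are close in size to -0.78 and -0.71 in STAT5b-/- over WT, and both are taken against the same WT arrays. By contrast REF had ratios of 0.981 for Mmp23, 1.17 for Adam19, 1.01 for Adamts4 and 1.04 for Timp1, away from the STAT5b-/- arrays. For Mmp10 (0.699), Adam8 (0.687), Timp3 (0.673) and Adamts2 (0.804) REF lay below all WT arrays and above all STAT5b-/- arrays.

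With WT replicates 1 and 3 and REF as the control, a choice made after the data had been seen, 15 members were called, against 29.3% of all genes. They included 8 of the 9, without Adam23, and added Mmp3, Mmp14, Timp1, Timp2, Adam9, Adamts1 and Adamts10. In that fit 3 of the 4 TIMPs fell, while the median of the 60 members was -0.05, against 0.11 over all genes. After quantile normalization 3 of the 9 calls remained, Mmp10, Adam8 and Adamts2, against 2.77% of all genes called. With ratios to the WT mean, that step narrows differences from WT by design.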

How the data were processed

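RNA from mouse colon was hybridised to 8 Affymetrix arrays from 100 ng of total RNA, per the labels' protocols. The deposited values are ratios to the mean of the 3 WT arrays of each probe set, which is 1 to within 1.87e-07 in all 26180 probe sets. Per the submitters' processing notes the tool was RMA (version not given in the sources used here). The lowest value is 0.01. Dividing by the WT mean keeps log2 differences within a gene and removes levels between genes, so dim probe sets could not be filtered out. Precision is limited by the number of arrays.

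RefSeq accessions in the probe set names matched 1 symbol for 15225 probe sets (14348 genes; gene table of GRCm38.p6). Ratios were taken to log2 without a pseudocount and probe sets of a gene averaged. Groups were compared with limma 3.58.1 in R 4.3.3 (lmFit, eBayes), 3 arrays against 3, with Benjamini-Hochberg adjustment over all genes at 0.05. The 2 REF columns (largest relative difference 2.47e-07) were averaged as 1 sample. The fit was tested on simulated data. Exact permutation of 3 arrays against 3 cannot go below 0.1 and was not used.

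Members, roles and lists were chosen with earlier results of these data known. Described with values were all called members, all TIMPs, the 5 uncalled members of each other family with the smallest p, up to 4 genes a list and the 3 members with the smallest p for REF. Other members named were singled out after their values were seen. Alternatives covered normalization, centring, pseudocount, probe set choice, controls, the fit and each left-out array.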

Additional observations from a re-analysis of the deposited data

How the results depend on the processing

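Mmp10, Adam8 and Adamts2 kept their call and direction under each of the 17 alternatives. Each is read by 1 probe set, so the alternatives of probe set choice could not change their log2FC. Those alternatives, and keeping REF in the fit, are therefore no separate check of these genes. Signs of uncalled members did turn with the controls: 12 of 60 without WT replicate 2 and 12 with WT replicates 1 and 3 and REF as the control, among them Adam17, Adam28, Mmp1b and Mmp20 in both. Log2 ratios had a standard deviation of 0.289 to 0.363 in the WT arrays and 0.646 to 0.737 in the STAT5b-/- arrays. Ratios were taken to the WT mean, so differences from WT are part of the wider spread. Quantile normalization forces all arrays onto 1 spread and so narrows them. A call lost under it is therefore no separate evidence about that gene. It left 158 genes called higher and 239 lower (39.8% higher, against 61.2% in the reported fit). Of the members, 0 were higher and 3 lower (1 Mmp, 0 Timp, 1 Adam and 1 Adamts gene). Family medians were -0.43 (Timp), -0.16 (Adam) and -0.16 (Adamts). With WT replicates 1 and 3 and REF as the control, 14 members were lower (4 Mmp, 3 Timp and 4 Adamts genes among them), and the medians were -0.11 (Mmp), 0.03 (Adam) and -0.10 (Adamts). WT and REF together gave 3 lower Timp genes. Same-numbered arrays did not deviate together (correlations of 0.036, -0.098 and -0.186 over genes). With 3 arrays a group this cannot show whether samples were paired, and the labels do not say what the numbers mark. The replicate block gave 1238 genes higher, 801 lower and 2 Timp genes lower. Leaving out 1 array gave 1053 to 2192 genes higher, 663 to 1359 lower, 0 to 2 members higher and 2 to 4 Mmp genes lower, with medians of -0.47 to -0.19 (Mmp), -0.39 to -0.06 (Adam) and -0.46 to -0.11 (Adamts). Keeping REF in the fit as a group of its own adds no residual degree of freedom, so it cannot change a call. REF against WT gave 0 calls in each setting. The cause of these shifts was not tested.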
